A study of Mus musculus with 38 samples.

Results

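The 46 genes described here are genes of DNA replication and mitosis, the G1 cyclins and E2F factors that precede them, and the cell cycle inhibitor Cdkn1a. They were taken by symbol from the 46078 gene rows of the count tables, and each of the 46 was found once. By role, 11 act in replication licensing and at replication forks, 4 in nucleotide synthesis and 6 in G1 and S phase control. A further 5 are cyclins and regulators of the G2 and M phases, 8 are mitotic kinases and checkpoint proteins, and 11 belong to the spindle, the kinetochore and the chromosomes. The last is Cdkn1a. All 46 passed the filter on low counts in every comparison.

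The study measured mRNA of intestinal epithelium from C57BL/6 mice before colitis and during it. Mice labelled Hk2∆IEC (called KO here) carried a floxed Hk2 allele and a Cre recombinase driven by the Villin promoter, and the controls (WT) were Hk2fl/fl littermates. Hk2 encodes hexokinase 2, an enzyme of the first step of glycolysis. Dextran sodium sulfate (DSS), which injures the colonic epithelium, was given at 1.5% in drinking water. Libraries came from untreated mice (day 0, 4 WT and 5 KO) and from mice on day 3 (7 WT and 8 KO) or day 7 (7 WT and 7 KO). The DSS mice were males of 10 to 12 weeks, with both genotypes sharing cages. For basal phenotyping the labels name mice of 9 to 11 and of 86 to 92 weeks. They do not say from which of these age groups the untreated mice came. The Villin promoter is active in intestinal epithelium, so the deletion is directed to epithelial cells and not to immune or stromal cells that a sample may hold. The series text speaks of colon tissue, whereas each sample is labelled as isolated cells of the intestinal epithelium. The epithelial markers Epcam, Vil1, Cdh1, Krt8, Krt18, Krt19, Cdx1 and Cdx2 had no library at 0 counts, and their summed level ran from 8930 to 17500 CPM.

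In the gut, cells divide near the crypt base and stop as they move up and differentiate. A cell that commits to division loads the Mcm2 to Mcm7 helicase onto DNA with the help of Cdc6 and Cdt1, copies its DNA, and then builds up cyclin B with Cdk1 to enter mitosis. Genes of the first step are classic targets of E2F factors, while many genes of the last step are controlled through a promoter element called CHR together with CCAAT boxes bound by NF-Y. In bulk samples such as these, fewer dividing cells and less of an mRNA per dividing cell cannot be told apart.

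The RefSeq table held promoters for 36 of the 46 genes, and 4 are printed, those of 2 mitotic and 2 licensing genes, so that their letters can be set beside each other. Each run is the 250 bases before the RefSeq start, 5′ to 3′ on the gene's strand, in build GRCm38.p6. Ccnb2 (cyclin B2) is at chr9:70421555-70421804 on the minus strand, Top2a (topoisomerase II alpha, which untangles chromosomes) at chr11:99024190-99024439 on the minus strand, Mcm5 at chr8:75109259-75109508 on the plus strand and Mcm6 at chr1:128359706-128359955 on the minus strand. Capitals mark matches, on either strand, to the CHR element, spelled TTTGAA in its usual form and in a second accepted form TTTAAA, to the NF-Y box CCAAT or to E2F sites (TTTCCCGC, TTTGGCGC or TTTCGCGC), and overlapping matches run together.
Ccnb2: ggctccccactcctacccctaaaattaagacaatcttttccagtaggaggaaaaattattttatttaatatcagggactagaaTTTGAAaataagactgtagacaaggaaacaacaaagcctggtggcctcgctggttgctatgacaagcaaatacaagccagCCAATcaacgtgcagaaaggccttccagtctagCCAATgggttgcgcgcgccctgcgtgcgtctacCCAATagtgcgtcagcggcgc
Top2a: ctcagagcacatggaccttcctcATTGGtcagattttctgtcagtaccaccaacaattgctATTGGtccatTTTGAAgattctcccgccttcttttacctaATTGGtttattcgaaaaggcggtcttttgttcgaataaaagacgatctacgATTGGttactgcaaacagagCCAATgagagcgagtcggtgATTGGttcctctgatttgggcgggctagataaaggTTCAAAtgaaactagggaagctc
Mcm5: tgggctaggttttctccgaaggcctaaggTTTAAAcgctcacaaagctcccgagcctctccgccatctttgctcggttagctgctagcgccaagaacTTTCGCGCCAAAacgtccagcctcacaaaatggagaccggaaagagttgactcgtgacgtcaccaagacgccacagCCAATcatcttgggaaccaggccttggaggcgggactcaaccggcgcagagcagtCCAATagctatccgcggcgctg
Mcm6: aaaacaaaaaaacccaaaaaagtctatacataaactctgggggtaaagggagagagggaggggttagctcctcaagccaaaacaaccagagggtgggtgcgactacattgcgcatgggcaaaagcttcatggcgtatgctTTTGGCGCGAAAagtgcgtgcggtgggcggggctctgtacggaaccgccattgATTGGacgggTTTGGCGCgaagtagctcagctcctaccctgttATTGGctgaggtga
The Ccnb2 run held 1 CHR match and 3 CCAAT matches, the Top2a run 2 and 6, and neither held an E2F match. The Mcm5 run held 2 overlapping E2F matches beside 1 CHR and 2 CCAAT matches, and the Mcm6 run held 3 E2F and 2 CCAAT matches. CHR was present in 13 of 19 G2 and M phase genes with a promoter (68.4%), in 2 of 9 licensing and fork genes (22.2%) and in 25.2% of all 32841 promoter windows of that length. CCAAT was present in 18 of the 19 (94.7%), in 7 of the 9 (77.8%) and in 33.9% of all windows. The E2F letters were present in 1 of the 19 (5.3%), in 4 of the 9 (44.4%) and in 1.5% of all windows. CCAAT was thus frequent in both roles. These are matches of letters and not measured binding.

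Library totals over all genes ran from 10.5 M to 60.6 M counts, and levels are given as counts per 1 M (CPM) scaled by edgeR's TMM factors. The 9 day 0 libraries belong to another library series by their names, and histone genes took 0.266 to 0.413% of their counts against 0.012 to 0.0541% in the 29 later libraries. Comparisons with day 0 therefore join time, library series and possibly the age of the mice, which cannot be told apart. Hk2 was at 254 to 449 CPM in WT and 33.1 to 118 CPM in KO on day 0, and edgeR's test gave a log2 difference of -2.20 ± 0.30 (SE, adjusted p = 0.0331). On day 3 Hk2 was at 97.0 to 220 CPM in WT and 68.4 to 128 CPM in 7 KO libraries, but the library labelled d3_KO_345 had 435 CPM, so its values go against its label. On day 7 Hk2 was at 228 to 611 CPM in WT and 56.1 to 268 CPM in KO, and the day 3 and day 7 differences of -0.27 and -1.25 did not pass edgeR's test (adjusted p = 0.802 and 0.291).

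A few libraries stood apart over nearly the whole set of 46. The library labelled d0_KO_32 was the highest of its group in 43 of 46, all but E2f1, Plk1 and Cdkn1a, and 61.7% of its counts came from the mitochondrial genome. The library labelled d3_KO_345 was the highest of its group in 38 of 46, and d3_KO_350 was the lowest in 41. The library labelled d7_KO_420 was the lowest of its group in 42 of 46 and the highest in Cdkn1a. It also had the highest immune marker sum of its group (1460 CPM), the highest Hk2 (268 CPM) and the lowest sum of crypt base markers (347 CPM). What part these features have in the values was not tested, and results that change without these libraries are given both ways.

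Compared per kilobase of exon, and averaged over the 6 groups, Cdkn1a had the highest level of the 46 (77.5 CPM per kb). Plk1, the kinase of mitotic entry and spindle assembly, followed with 33.8, then the fork clamp Pcna with 27.3 and the G1 cyclin Ccnd1 with 26.3 CPM per kb. The G1 cyclin Ccnd2 (19.2), the proliferation marker Mki67 (19.1), Ccnb2 (18.1) and the mitotic activator Cdc20 (17.9) lay close together. At the low end were the licensing factor Cdc6 (1.40), the fork subunit Gins2 (1.73), E2f1 (1.74) and cyclin E1, Ccne1 (1.84 CPM per kb). These are levels in mixed epithelium and not amounts per dividing cell.

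Mki67 and Top2a gave the plainest picture of the libraries. Mki67 was at 287 ± 84.7 CPM (SD, n = 4) in the WT libraries of day 0, with d0_WT_31 lowest at 165 CPM, and at 249, 302, 255, 194 and 245 CPM in the 5 KO libraries. Its day 3 levels ran from 143 to 198 CPM in WT (median 153) and from 91.7 to 217 in KO (median 164), and on day 7 from 102 to 206 (median 139) and from 65.9 to 181 (median 147). The genotypes overlapped on every day, and the later libraries lay mostly below day 0. Top2a was at 174, 248, 216 and 180 CPM in WT and 203, 270, 203, 205 and 211 CPM in KO on day 0. Its day 3 levels ran from 109 to 139 CPM in WT (median 127) and from 69.0 to 183 in KO (median 119), and on day 7 from 75.0 to 149 (median 117) and from 39.9 to 145 (median 116). Every WT library of days 3 and 7 was below every WT library of day 0 in Top2a, and the KO libraries were separated in the same way.

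**Figure D1:**
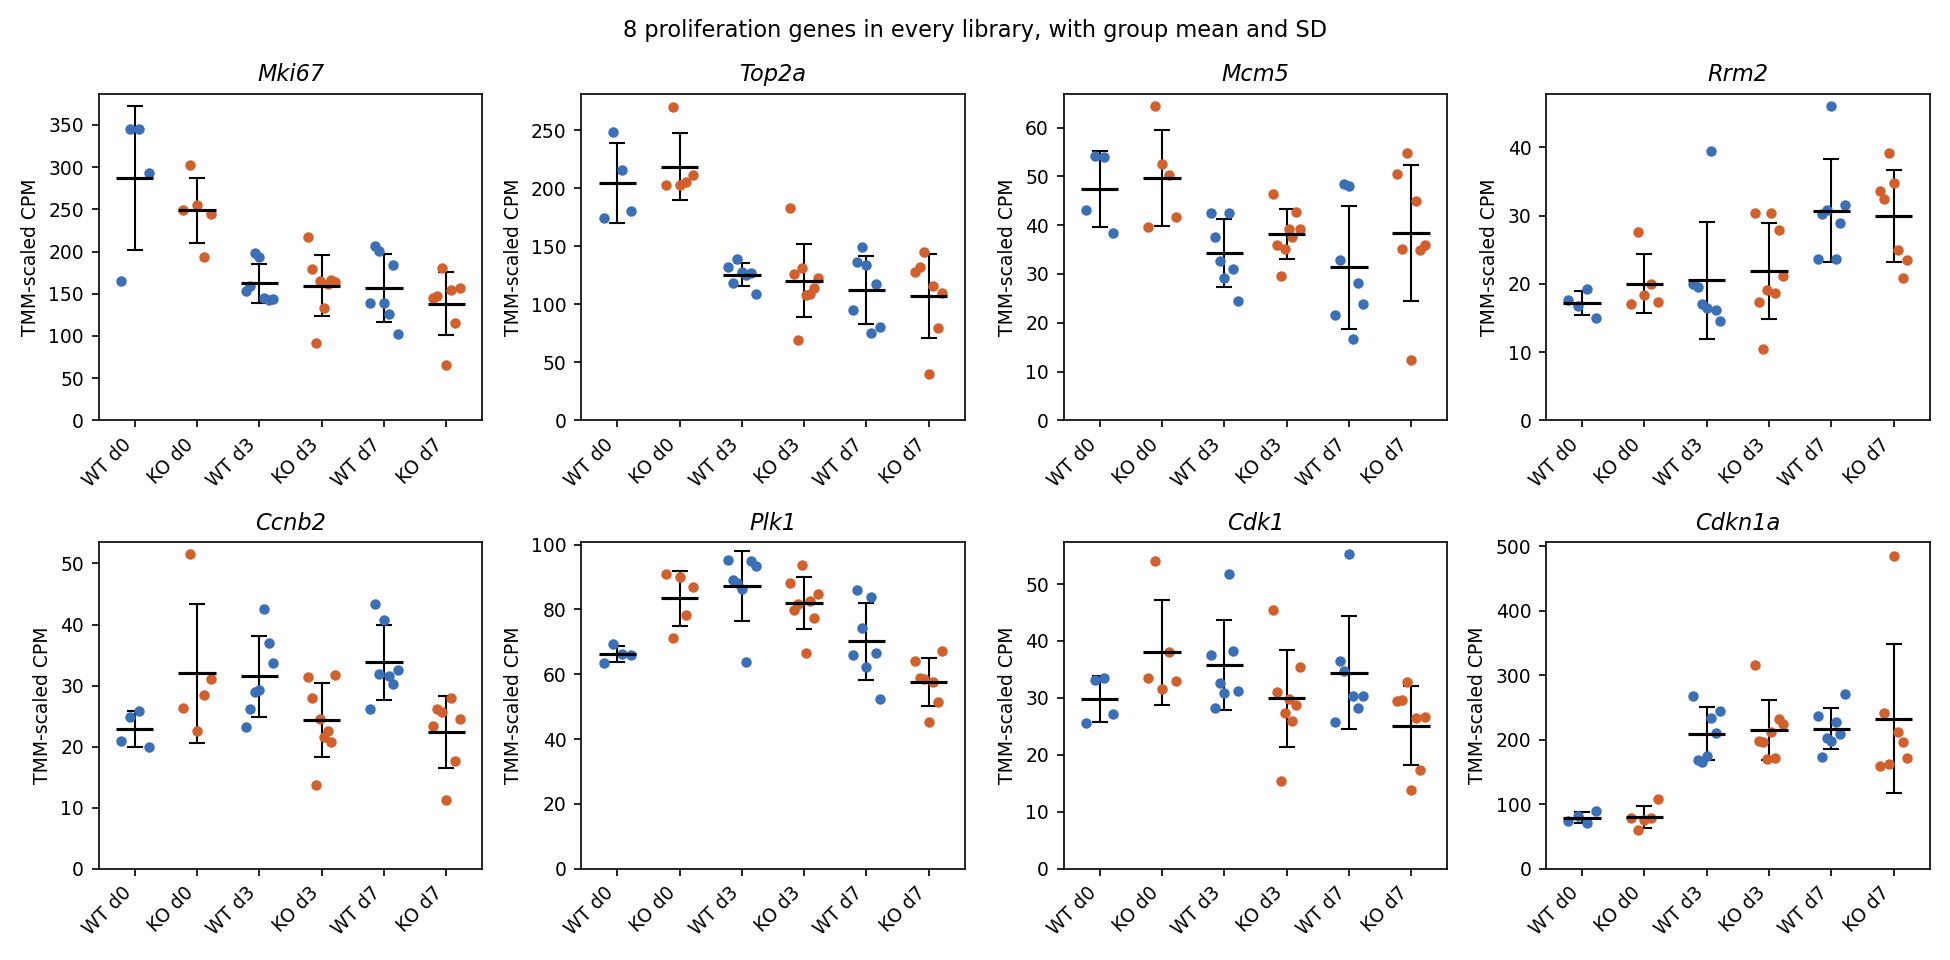
Levels of 8 of the genes in every library (TMM-scaled CPM, linear axes from 0), grouped by genotype and day, with blue points for WT, orange points for KO, a bar for the group mean and whiskers for the SD. Mki67 and Top2a lie lower after day 0 and Cdkn1a higher, while WT and KO overlap within days except for Plk1 on day 0.

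The first question is whether deletion of Hk2 changed these genes on a given day. None of the 46 passed edgeR's quasi-likelihood test (adjusted p under 0.05) on day 0, day 3 or day 7, where 0.0335%, 0.00647% and 0.00642% of all genes tested were called. An unadjusted p under 0.05 was reached by 4, 2 and 8 of the 46, against 10.5%, 7.88% and 12.9% of all genes. DESeq2's Wald test called 1, 0 and 0 of the 46, and 1.17%, 0.0129% and 0.571% of all genes. With days 3 and 7 in 1 fit with day as a term, 0 were called (background 0.0122%), 15 of 46 had an unadjusted p under 0.05 against 21.5% of all genes, and DESeq2 called 1 of the 46 and 3.46% of all genes.

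The signs of these small differences went by role. On day 7 all 24 genes of the 3 G2 and M phase roles had a negative log2 fold change (KO against WT), from -0.59 to -0.07 with a median of -0.30. In the same comparison all 6 of Mcm2 to Mcm7, the replicative helicase, had a positive value, from 0.11 to 0.42 with a median of 0.29. Cdc6, Cdt1 and Uhrf1 were also positive on day 7, and Gins2 and Pcna were negative. On day 3 the 24 were again all negative (median -0.18) and the 6 all positive (median 0.17). The median of all genes tested was 0 on both days. On day 0 the picture differed: 19 of the 24 were positive (median 0.20), and 4 of the 6 Mcm genes were positive (median 0.04). No single value among these passed the test, genes of a library vary together, and no test was made of the signs. Without d7_KO_420 the day 7 median of the 24 was -0.19 with 23 negative, without d3_KO_350 the day 3 median was -0.09 with 21 negative, and on day 0 the median was 0.05 without d0_KO_32 and 0.12 without d0_WT_31. The day 7 median of the 6 Mcm genes was 0.44 without d7_KO_420, 0.19 without d7_KO_368 and 0.18 without d7_WT_393, and their day 3 median was 0.11 with 5 positive without d3_WT_487. With an immune marker score as covariate the day 3 medians were -0.32 for the 24 and 0.07 for the 6.

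Markers of other cells differed in the same comparisons, though none was called. On day 0, 4 of 4 small intestine enterocyte markers tested had a positive difference (KO against WT, median 2.71). Their summed level was 7.14 to 27.3 CPM in WT and 16.2 to 211 CPM in KO. Of 6 stromal markers tested on day 0, 4 were positive and 2 negative (median 0.83). In edgeR's test 4 markers of each kind had an unadjusted p under 0.05, against 10.5% of all genes. On day 3, 11 of 11 immune markers tested had a positive difference (KO against WT, median 0.56). On day 7, 9 of 10 crypt base markers had a positive difference (median 0.32) and 11 of 16 immune markers (median 0.13). Beyond the covariate fit, the part of these cells in the signs of the 46 genes was not tested. On day 0 the differences of the 46 genes went with exon length, with Spearman's rho of -0.56 across the 46 and -0.12 across all genes, given as a description. On days 3 and 7 the rho was 0.00 and 0.01 across the 46, and 0.28 and 0.31 across all genes.

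**Figure D2:**
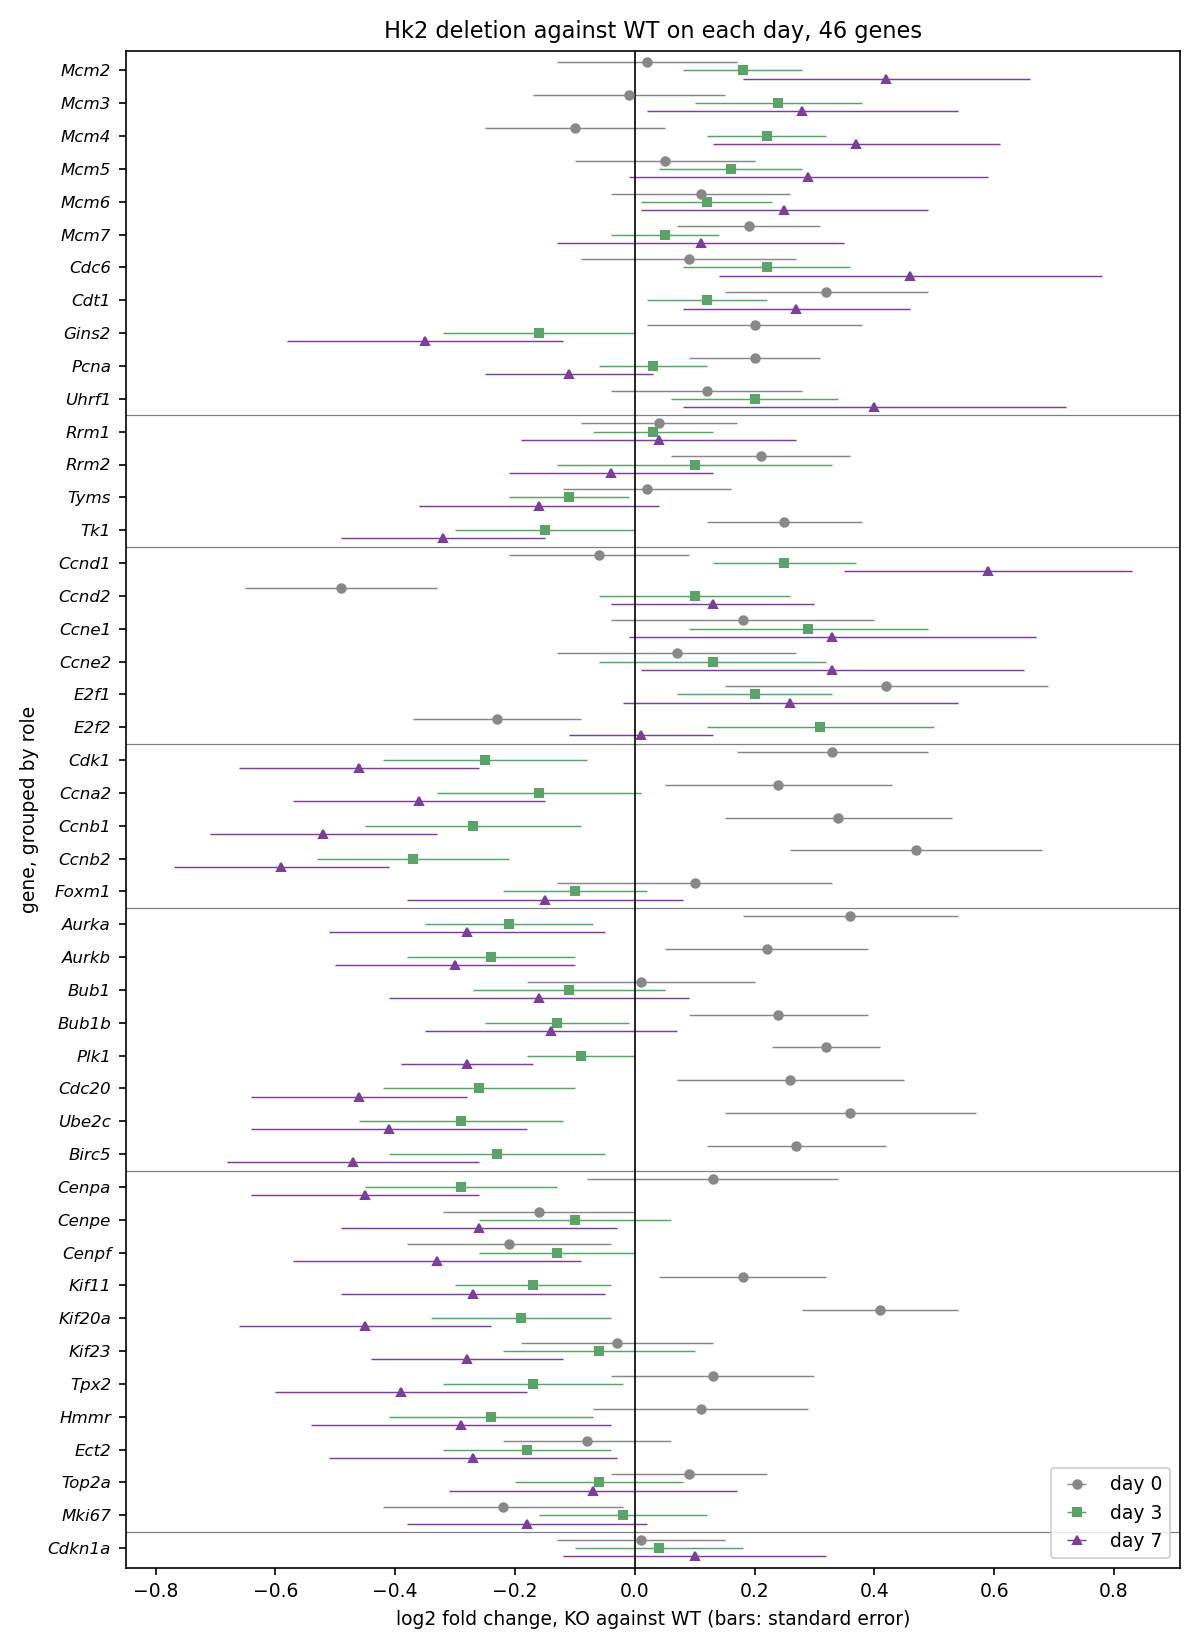
Log2 fold change of KO against WT for the 46 genes, grouped by role with lines between roles, on day 0 (grey circles), day 3 (green squares) and day 7 (purple triangles), with bars for the standard error. On days 3 and 7 the G2 and M phase genes lie left of 0 and Mcm2 to Mcm7 right of 0, and no gene passed the test.

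Ccnb2, whose product drives mitotic entry with Cdk1, had the smallest p of the 46 on days 3 and 7. It lies at chr9:70407689-70421554 (ENSMUSG00000032218, minus strand, GRCm38). On day 7 it ran from 26.1 to 43.4 CPM in WT (median 31.9) and from 11.3 to 27.9 CPM in KO (median 24.6). The 2 groups overlapped in a narrow stretch, and the log2 difference was -0.59 ± 0.18 (SE, edgeR adjusted p = 0.291). On day 3 it ran from 23.3 to 42.5 CPM in WT (median 29.3) and from 13.7 to 31.8 CPM in KO (median 23.6), with a log2 difference of -0.37 ± 0.16 (edgeR adjusted p = 0.623). On day 0 the order was the other way: 20.9, 24.8, 25.9 and 20 CPM in WT and 26.3, 51.5, 22.6, 28.5 and 31.1 CPM in KO (0.47 ± 0.21, edgeR adjusted p = 0.468; 0.24 without d0_KO_32). Over days 3 and 7 its log2 difference was -0.48 ± 0.13 (edgeR adjusted p = 0.0773). Without the library labelled d7_KO_420, in a fit chosen after seeing the data, this became -0.42 (edgeR adjusted p = 0.0419). DESeq2's Wald test with every library gave -0.48 with an adjusted p of 0.0208. Those fits called 470 and 566 of all genes, where the edgeR fit with every library called 2. The planned edgeR fit without d3_KO_345 called 4 of all genes, and Ccnb2 was not among them.

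Ccnb1 (cyclin B1), the mitotic activator Cdc20 and the centromeric histone Cenpa came next. Ccnb1 ran from 16.0 to 26.2 CPM in WT (median 20.5) and from 7.82 to 18.2 CPM in KO (median 15.6) on day 7, a log2 difference of -0.52 ± 0.19 (edgeR adjusted p = 0.318). Cdc20 ran from 29.1 to 47.2 CPM in WT (median 35.1) and from 12.9 to 31.6 CPM in KO (median 30.4), a difference of -0.46 ± 0.18 (edgeR adjusted p = 0.34). Its exons overlap Elovl1 on the other strand, and reads were counted without strand. Cenpa ran from 19.8 to 38.5 CPM in WT (median 24.9) and from 10.4 to 24.1 CPM in KO (median 21.2), a difference of -0.45 ± 0.19 (edgeR adjusted p = 0.357). In each of the 3 genes the KO median was below the WT median and the groups overlapped. Over days 3 and 7 the differences were -0.40 ± 0.13, -0.36 ± 0.12 and -0.37 ± 0.13 for Ccnb1, Cdc20 and Cenpa, with edgeR adjusted p-values of 0.114, 0.12 and 0.115.

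Cdk1, the kinase partner of cyclin B, ran from 25.8 to 55.3 CPM in WT (median 30.4) and from 13.8 to 32.8 CPM in KO (median 26.7) on day 7. The day 3 ranges were 28.3 to 51.7 CPM (median 32.6) and 15.5 to 45.5 CPM (median 29.3). Birc5 (survivin, of the chromosomal passenger complex) ran from 22.4 to 41.2 CPM in WT (median 28.3) and from 9.56 to 29.3 CPM in KO (median 23.5) on day 7. Both overlapped between genotypes, with log2 differences of -0.46 ± 0.20 and -0.47 ± 0.21 that did not pass edgeR's test.

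Ccnd1 (cyclin D1, which starts G1 progression with Cdk4 and Cdk6) was the G1 gene with the largest positive difference. On day 7 it ran from 67.0 to 139 CPM in WT (median 125) and from 61.2 to 243 CPM in KO (median 173). The groups overlapped, and the log2 difference was 0.59 ± 0.24 (edgeR adjusted p = 0.352). On day 3 it ran from 62.9 to 96.6 CPM in WT (median 81.4) and from 75.9 to 142 CPM in KO (median 86.5), with a difference of 0.25 ± 0.12 (edgeR adjusted p = 0.623). The 142 CPM was that of d3_KO_345, and without this library the difference was 0.15. The difference was 0.01 with an immune marker score as covariate, and the immune marker sum on day 3 was 12.5 to 54.2 CPM in WT, 34.5 to 51.1 CPM in 7 KO libraries and 111 CPM in d3_KO_345. Over days 3 and 7 Ccnd1 differed by 0.41 ± 0.14 (edgeR adjusted p = 0.117). Without d7_KO_420 this became 0.47 (edgeR adjusted p = 0.0396), in a fit chosen after seeing the data. That fit called 470 genes (2.85% of those tested), where the fit with every library called 2. The planned fit without d3_KO_345 did not call Ccnd1. Ccnd1 (chr7:144929931-144939869, ENSMUSG00000070348) overlaps exons of Oraov1 on the other strand.

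Of the licensing genes, Mcm4 had the smallest p on day 3. It ran from 20.1 to 31.9 CPM in WT (median 27.7) and from 24.8 to 40.5 CPM in KO (median 30.6), a log2 difference of 0.22 ± 0.10 (edgeR adjusted p = 0.623). With the immune score as covariate this became 0.07. Mcm5 ran from 24.5 to 42.6 CPM in WT (median 32.7) and from 29.5 to 46.3 CPM in KO (median 38.4) on day 3. On day 7 it ran from 16.7 to 48.4 CPM (median 28.2) and from 12.4 to 54.8 CPM (median 36.0), so that the ranges within a genotype were wider than the gap between them. Ccne1, which acts at the G1 to S transition, stayed low on every day. It ran from 1.87 to 10.8 CPM in WT and from 2.22 to 8.83 CPM in KO on day 7, with medians of 4.28 and 6.5 CPM.

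On day 0, Plk1 was the 1 gene of the 46 whose groups did not overlap, where 3.39% of all genes tested did not overlap. Plk1 was at 63.4, 69.4, 66.2 and 65.9 CPM in WT and at 90.8, 71.2, 89.9, 78.4 and 86.8 CPM in KO. All 5 KO libraries were higher, and the log2 difference was 0.32 ± 0.09 (edgeR adjusted p = 0.273). DESeq2's Wald test gave 0.33 with an adjusted p of 0.0402, in a fit that called 175 genes where edgeR called 5. Kif20a, a kinesin of cytokinesis whose exons overlap Cdc23 on the other strand, was at 19.2, 21.3, 20.1 and 19.4 CPM in WT and 21, 35.8, 24.6, 25.8 and 27.1 CPM in KO (0.41 ± 0.13, edgeR adjusted p = 0.368). Ccnd2 was the gene with the largest negative value, at 132, 165, 233 and 162 CPM in WT and 137, 146, 125, 116 and 96.9 CPM in KO (-0.49 ± 0.16, edgeR adjusted p = 0.367; -0.32 without d0_WT_43). Kif20a and Ccnd2 overlapped between the genotypes. On days 3 and 7 the genotypes overlapped in all 46, where 0.0323% and 0.282% of all genes did not overlap.

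Whether the genotypes differed in their change over time was tested by interaction terms. None of the 46 was called for day 7 against day 3, where 0% of all genes were called, and none had an unadjusted p under 0.05 against 2.69% of all genes; DESeq2 also called 0. The smallest p-values were those of Plk1 (-0.19 ± 0.14), E2f2 (-0.30 ± 0.23) and Ccnd1 (0.34 ± 0.28 on the log2 scale). For day 7 against day 0, none of the 46 was called (background 0.00531%) and 10 had an unadjusted p under 0.05 against 13.5% of all genes, while DESeq2 called 0. Ccnb2 had an interaction of -1.03 ± 0.30 and Plk1 of -0.58 ± 0.16 (edgeR adjusted p = 0.182 for both). Ccnb1 had -0.83 ± 0.30 (edgeR adjusted p = 0.239). Negative values mean that KO went down relative to WT between day 0 and day 7, and library series is shared by both genotypes on day 0. Without d7_KO_420 edgeR's adjusted p of Ccnb2 was 0.0535 and that of Plk1 0.0592. That fit, chosen after seeing the data, called 279 genes (1.5% of those tested) where the fit with every library called 1. The median interaction of the 24 G2 and M phase genes was -0.5 with every library and -0.39 without d7_KO_420. Leaving out single day 0 libraries gave medians from -0.59 (without d0_KO_53) to -0.37 (without d0_KO_32). The fit without d0_KO_32 called 0 of all genes.

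The balance between the G2 and M phase genes and the licensing genes can be set out per library. It is the mean log2 CPM of the 24 genes of the first kind minus that of the 11 of the second, and it is a description of values already given, with no test. On day 7 it ran from 0.05 to 0.93 in WT (median 0.60) and from -0.42 to 0.43 in KO (median -0.08). On day 3 it ran from 0.12 to 0.82 in WT (median 0.49) and from -0.28 to 0.45 in KO (median 0.115). The ranges overlapped on both days, with 5 of 7 KO libraries of day 7 below 0 and 0 of 7 WT libraries. On day 0 the range was -0.07 to 0.37 in WT and -0.02 to 0.49 in KO. Without d7_KO_420 the day 7 KO median was -0.135, and without d3_KO_345 the day 3 KO median was 0.07.

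**Figure D3:**
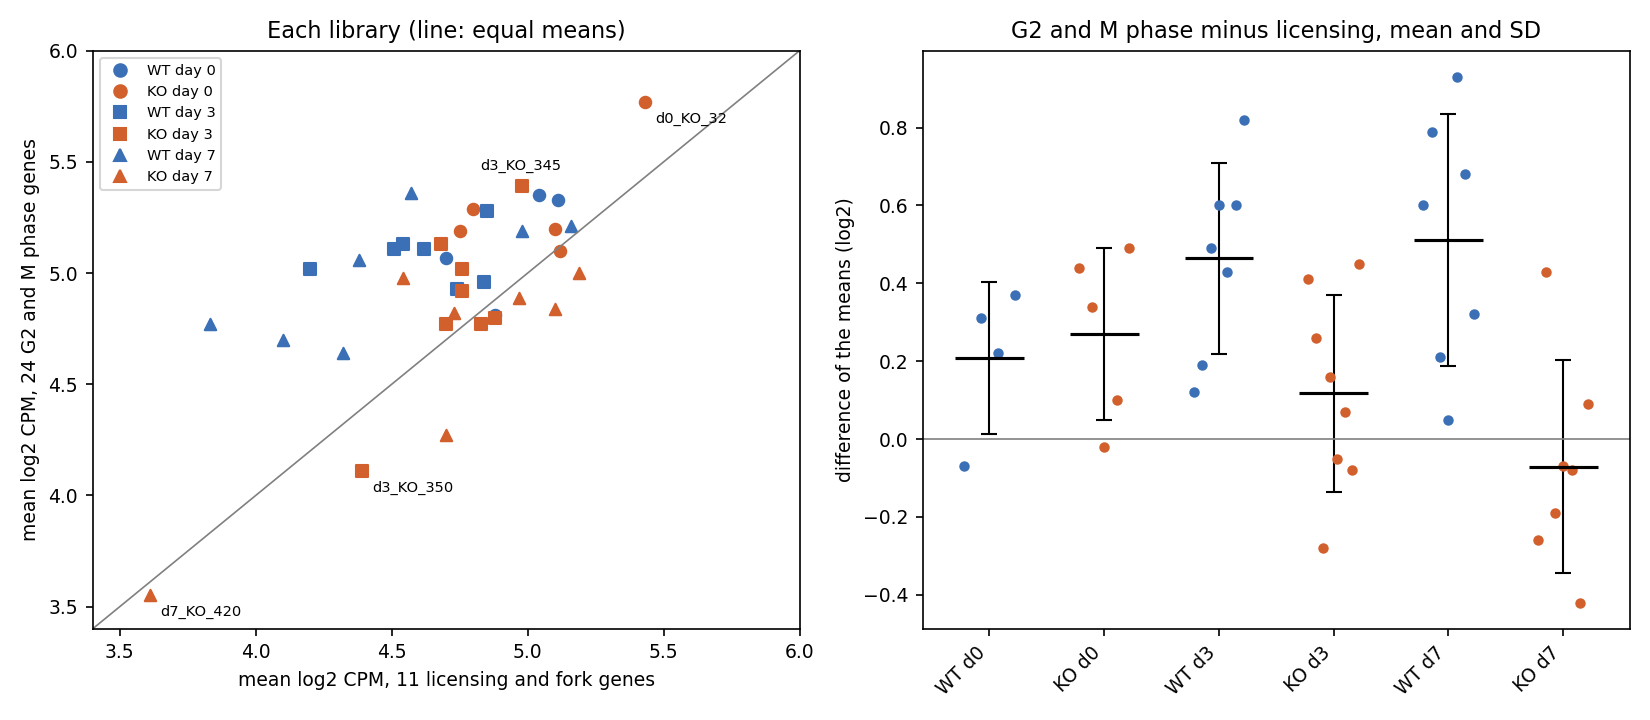
Left, mean log2 CPM of the 24 G2 and M phase genes against that of the 11 licensing and fork genes in each library, with blue for WT, orange for KO, a marker shape per day and a grey line where both are equal. Right, their difference by group with the mean and SD; day 7 WT libraries lie between 0.05 and 0.93 and day 7 KO libraries between -0.42 and 0.43.

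The second question is how the genes changed from day 3 to day 7 of DSS, which lie in the same library series. In WT, edgeR called 2 of the 46 higher (Ccnd1 and E2f2) and 2 lower (Ccnd2 and Plk1), where 10.6% of all genes were called higher and 8.70% lower. In KO it called 1 higher (Ccnd1) and 2 lower (Plk1 and Ccnd2), against 10.5% and 8.83% of all genes. The share of the 46 called was thus below the background of 19.3% in each genotype. The median log2 change of the 46 was -0.08 in WT and -0.17 in KO, and that of all genes was 0.01 and -0.01. The 3 genes called in KO were also called in WT, in the same direction. The days overlapped in all 46 genes in both genotypes, where 4.60% of all genes in WT and 5.07% in KO did not overlap.

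Ccnd1 rose and Ccnd2 fell in both genotypes. Between the days Ccnd1 went from a median of 81.4 to 125 CPM in WT (0.52 ± 0.14, edgeR adjusted p = 0.0187) and from 86.5 to 173 CPM in KO (0.85 ± 0.22, edgeR adjusted p = 0.0117), with day 3 and day 7 libraries overlapping in both. Ccnd2, a second D-type cyclin, ran from 119 to 279 CPM in WT on day 3 (median 241) and from 131 to 188 CPM on day 7 (median 149), a log2 change of -0.58 ± 0.16 (edgeR adjusted p = 0.02). In KO it ran from 185 to 327 CPM (median 227) and from 94.0 to 228 CPM (median 186), a change of -0.56 ± 0.17 (edgeR adjusted p = 0.0318). The KO call was lost on leaving out any of 5 libraries (d3_KO_345, d3_KO_385, d3_KO_388, d7_KO_367 or d7_KO_422), with adjusted p-values up to 0.0697. Ccnd2 overlaps exons of 2 genes on the other strand. The ratio of Ccnd1 to Ccnd2 CPM within a library, which compares these genes without correction for length, went from a median of 0.319 to 0.822 in WT and from 0.385 to 0.993 in KO.

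**Figure D4:**
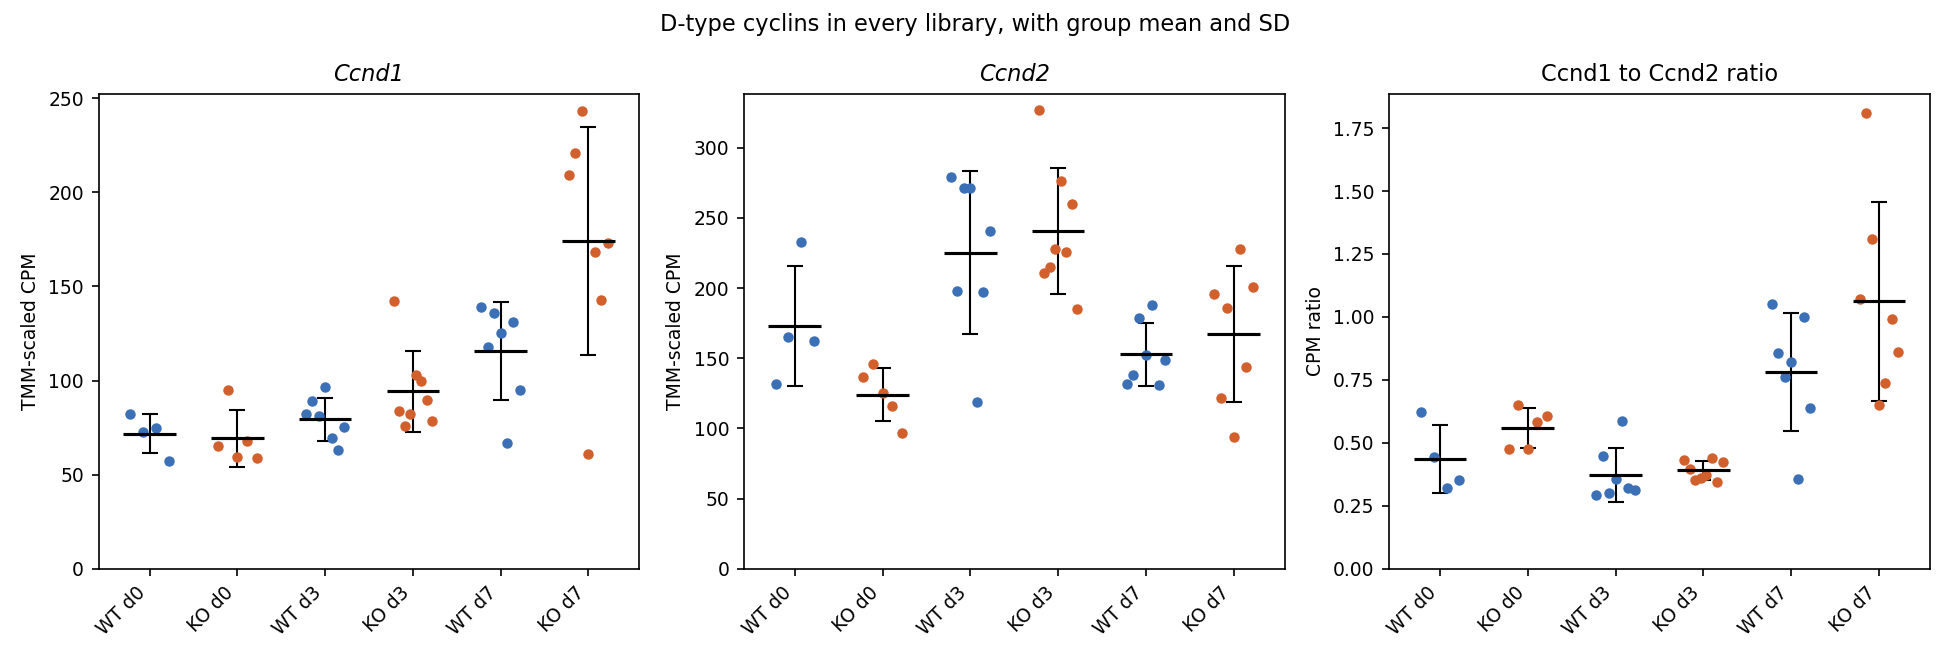
Ccnd1, Ccnd2 and the ratio of their CPM in every library by group (blue WT, orange KO, linear axes from 0), with group mean and SD. The ratio runs from 0.294 to 0.585 on day 3 in WT, from 0.344 to 0.441 on day 3 in KO, from 0.356 to 1.05 on day 7 in WT and from 0.651 to 1.81 on day 7 in KO.

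Plk1 fell in KO from a range of 66.5 to 93.8 CPM (median 82.2) on day 3 to 45.3 to 67.2 CPM (median 58.5) on day 7. The change was -0.55 ± 0.09 (edgeR adjusted p = 0.000413), and the days overlapped between 66.5 and 67.2 CPM. In WT it went from a range of 63.9 to 95.3 CPM (median 89.1) to 52.3 to 85.9 CPM (median 66.5), a change of -0.34 ± 0.11 (edgeR adjusted p = 0.0484). The WT call was lost with no filter on low counts (adjusted p = 0.0681) and on leaving out any of 11 of the 14 libraries (adjusted p up to 0.0891). E2f2, an activating E2F factor, rose in WT from a range of 25 to 48.9 CPM (median 34.4) to 44.2 to 66.6 CPM (median 57.0), a change of 0.55 ± 0.14 (edgeR adjusted p = 0.0141). In KO its change of 0.23 ± 0.17 did not pass (edgeR adjusted p = 0.412). Rrm2, the regulatory subunit of ribonucleotide reductase, ran from 14.6 to 39.5 CPM in WT on day 3 (median 17.1) and from 23.6 to 46.1 CPM on day 7 (median 30.2), a change of 0.57 ± 0.21 (edgeR adjusted p = 0.075).

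Markers of other cells moved over the same days. Of 16 immune markers, edgeR called 13 higher in WT and 16 higher in KO on day 7 against day 3. The summed immune level was 132 to 960 CPM in WT and 116 to 1460 CPM in KO on day 7, and no immune marker was at 0 counts in a day 7 library, while 6 of 16 in WT and 4 of 16 in KO had a library at 0 on day 3. Of 9 crypt base and stem cell markers tested, 4 were called lower in WT and 1 in KO. The median crypt base sum was 689 CPM in WT and 564 CPM in KO on day 3, and 482 and 463 CPM on day 7. Of 9 stromal markers, 1 was called higher in WT and 0 in KO (3 had an unadjusted p under 0.05 in KO). The part of these cells in the changes of the 46 genes was not tested.

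The third question is how DSS days compare with untreated mice. Here every value also holds the difference between the library series and any difference in age. In WT, edgeR called 5 of the 46 higher and 12 lower on day 3 (background 46% of all genes, 20.4% higher and 25.6% lower) and 7 higher and 11 lower on day 7 (56.9%, 27.8% and 29.2%). In KO it called 3 higher and 17 lower on day 3 (46.3%, 22.6% and 23.7%) and 4 higher and 19 lower on day 7 (54.6%, 27.3% and 27.3%). The median log2 change of the 46 was -0.05 and -0.17 in WT and -0.36 and -0.53 in KO, while that of all genes was 0.03, 0.01, 0.01 and 0.01. Of the 46, 13 genes were called in none of the 4 comparisons (23.1% of all genes tested in all 4), among them Mcm2, Mcm3, Pcna, Ccna2, Foxm1 and Aurka. The comparisons with day 0 share their day 0 libraries within a genotype. Markers of other cells also differed: on day 7, 13 of 16 immune markers in WT and 16 of 16 in KO were called higher, and 7 and 5 of 10 crypt base markers lower, and their part in the values of the 46 was not tested.

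Cdkn1a (p21, which inhibits cyclin-dependent kinases) was the 1 gene of the 46 called higher in all 4, as 11.8% of all genes tested in all 4 were. It was at 74.1, 82.5, 71.1 and 89.5 CPM in WT and 79.0, 60.4, 76.1, 78.4 and 108 CPM in KO on day 0. By day 3 it ran from 166 to 267 CPM in WT (median 210) and from 170 to 316 in KO (median 205), and on day 7 from 173 to 271 (median 209) and from 160 to 485 (median 197). Every later library was above every day 0 library of its genotype. The log2 changes were 1.39 ± 0.16 and 1.42 ± 0.13 in WT and 1.43 ± 0.16 and 1.51 ± 0.27 in KO, with edgeR adjusted p-values from 1.36e-06 to 0.000355. The KO day 7 value was 1.22 without d7_KO_420, whose 485 CPM was the highest of the 38 libraries. Cdkn1a lies at chr17:29090979-29100722 (ENSMUSG00000023067, plus strand).

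The other genes called higher were fewer and differed between comparisons. Ube2c, a ubiquitin-conjugating enzyme of mitotic exit that overlaps Tnnc2 on the other strand, was at 17.7, 22.1, 22.9 and 17.1 CPM in WT on day 0 and at 26.6 to 50.5 CPM on day 3 (median 35.3). This was a log2 change of 0.83 ± 0.16 (edgeR adjusted p = 0.000893), with 0.74 ± 0.17 on day 7. Rrm2 was at 17.6, 16.7, 19.3 and 15 CPM on day 0 and rose on day 7 in WT by 0.81 ± 0.17 (edgeR adjusted p = 0.00134) and in KO by 0.56 ± 0.17 (edgeR adjusted p = 0.013). E2f1 was at 3.03, 3.92, 5.07 and 3.73 CPM in WT on day 0 and at 3.68 to 7.16 CPM on day 3, a change of 0.56 ± 0.21 (edgeR adjusted p = 0.0377) that lost its call without d0_WT_31, d0_WT_41 or d0_WT_46 (adjusted p up to 0.102). In KO, Ccnd2 rose on day 3 by 0.97 ± 0.14 (edgeR adjusted p = 3.04e-05) with no overlap, and Ccnd1 rose on day 7 by 1.31 ± 0.27 (edgeR adjusted p = 0.00106). E2f2 was higher on day 7 in both genotypes, by 0.37 ± 0.12 in WT and 0.60 ± 0.15 in KO (edgeR adjusted p = 0.0201 and 0.00394).

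The genes called lower in all 4 comparisons were 8: Cdt1, Uhrf1, Bub1b, Cenpe, Cenpf, Kif11, Top2a and Mki67. Of all genes tested in the 4 comparisons, 14.7% were called lower in each. Cenpf, a large kinetochore protein, was at 39.4, 77.6, 71.1 and 63.8 CPM in WT and 53, 66.2, 54.7, 44.3 and 57.5 CPM in KO on day 0. On day 7 it ran from 17.3 to 44.0 CPM in WT (median 24.2) and from 9.42 to 29.4 in KO (median 25.7), with log2 changes of -1.12 ± 0.24 and -1.25 ± 0.22 (edgeR adjusted p = 0.00149 and 0.000315). Uhrf1, which guides DNA methylation at replication forks, was at 43.6, 63.0, 62.0 and 45.0 CPM in WT on day 0 and at 13.2 to 40.8 CPM on day 7 (median 24.3), a change of -1.13 ± 0.28 (edgeR adjusted p = 0.00367). Kif11, the motor that separates spindle poles, was at 60.5, 92.0, 59.6, 65.1 and 67.3 CPM in KO on day 0 and at 13.3 to 39.3 CPM on day 7 (median 38), a change of -1.12 ± 0.23 (edgeR adjusted p = 0.000974). Mki67 fell by 0.91 ± 0.22 in WT and by 0.87 ± 0.20 in KO on day 7, and Top2a by 0.89 ± 0.19 and 1.05 ± 0.24 on the log2 scale.

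Groups did not overlap for 6 and 7 of the 46 in WT on days 3 and 7, against 31.2% and 39.1% of all genes. In KO they did not overlap for 9 and 15 of the 46, against 23.9% and 34.3%. The counts called lower moved with single day 0 libraries. They went from 12 to 7 in WT on day 3 without d0_WT_41 or d0_WT_43, and from 11 to 7 or 6 on day 7. Without these libraries the share of all genes called in either direction went from 46% to 37.1% and 38.8% on day 3. The day 7 share went from 56.9% to 48.5% and 49.4%. In KO the number called lower went from 19 to 11 on day 7 without d0_KO_32, and the number called higher on day 3 went from 3 to 5 without it. The share of all genes called went from 54.6% to 56.6% on day 7 and from 46.3% to 49.5% on day 3 without d0_KO_32. In WT on day 3 the number called higher went from 5 to 3 without d0_WT_31 or d0_WT_46, where 51% and 35.3% of all genes were called.

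The genes called lower tended to be long. In WT on day 3 the 12 genes called lower had a median counted exon length of 4742 bases and the 5 called higher one of 2223 bases, with 3997 bases for the 29 not called. Over the 46 genes Spearman's rho between log2 change and length was -0.52 in WT on both days, and -0.37 and -0.38 in KO on days 3 and 7. Over all genes tested the same rho lay between -0.09 and -0.02 in these 4 comparisons. These are correlations across genes of the same libraries, given as descriptions. Cenpf, Mki67, Top2a and Cenpe were among the longest of the genes called lower, and the part of length or RNA quality in these changes was not tested.

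**Figure D5:**
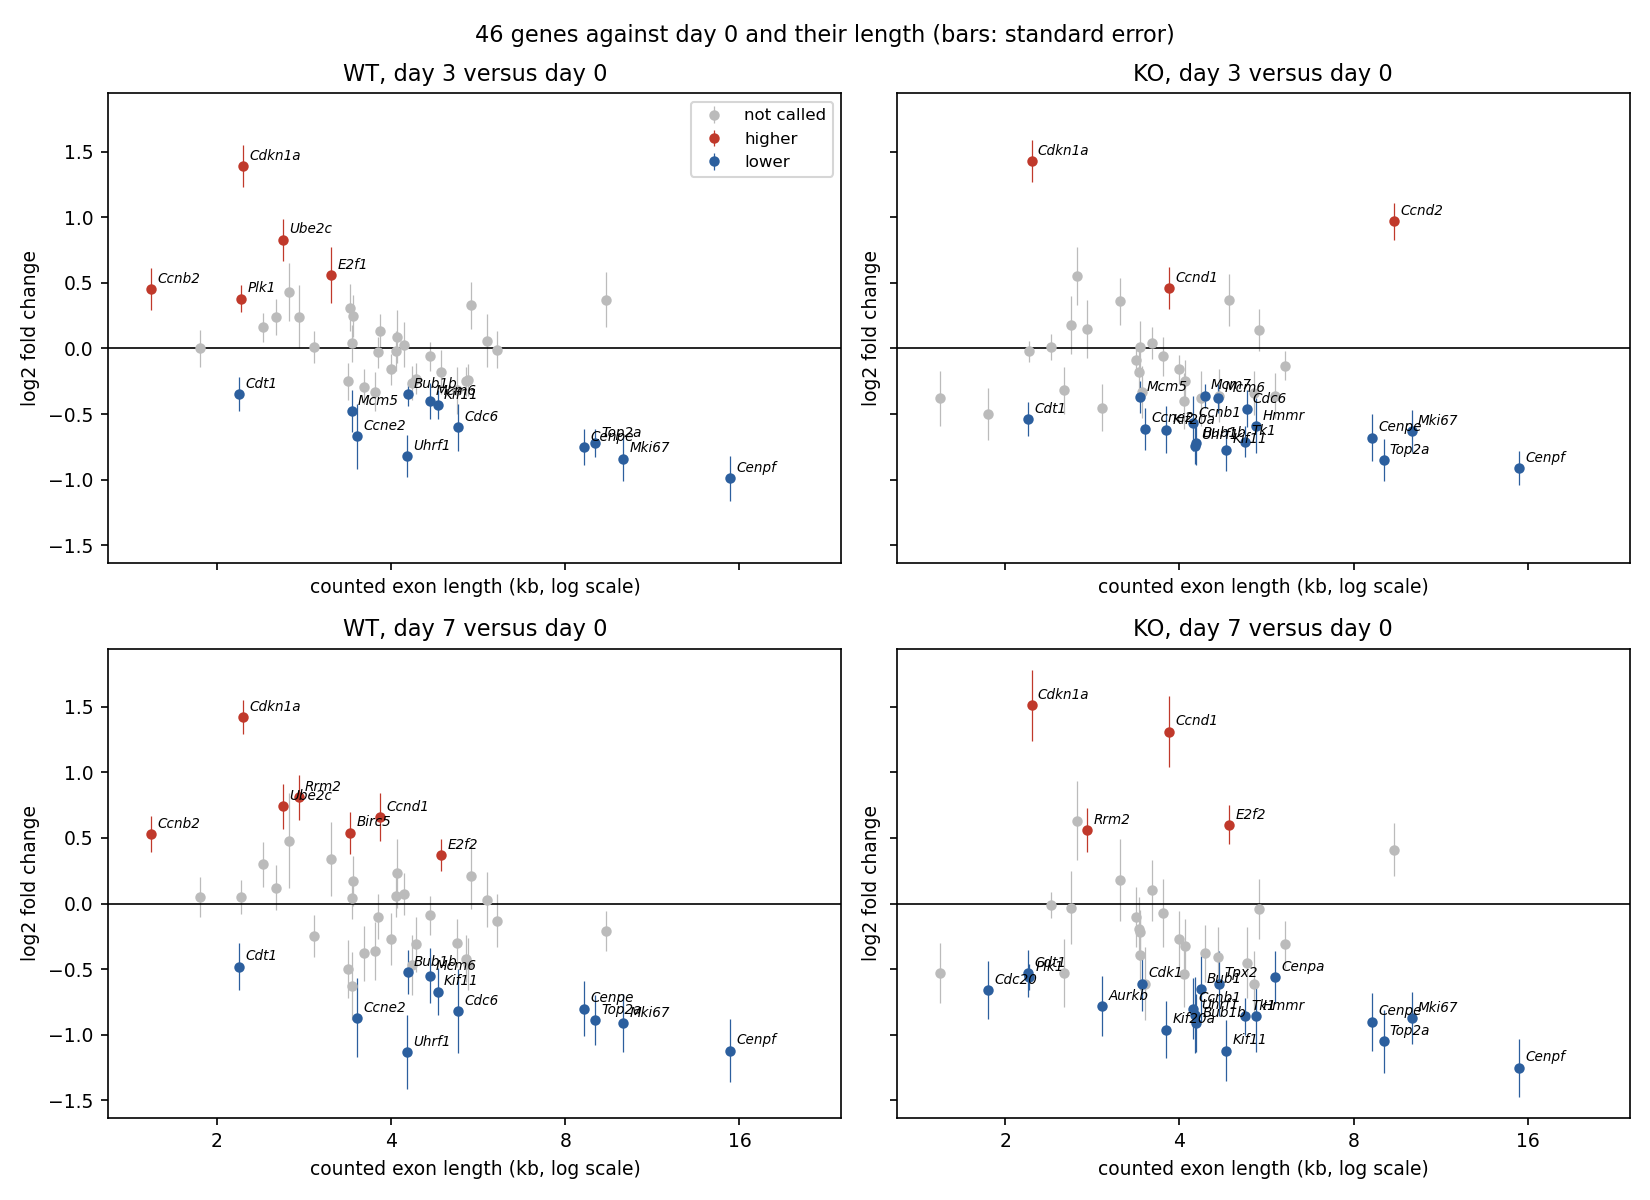
Log2 fold change against day 0 (bars, standard error) and counted exon length (kb, log scale) for the 46 genes in each genotype on days 3 and 7, with genes called higher in red, lower in blue and others in grey. Cdkn1a stands highest in every panel and the longest gene, Cenpf, at or near the bottom.

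Other genes of the same pathways were read in 4 lists. Between genotypes edgeR called 0 of them on any day. On day 7, 56 of 56 other mitosis genes had a negative difference (KO against WT, median -0.31) and 17 had an unadjusted p under 0.05 (12.9% of all genes), while 36 other replication genes had a median of 0.03 with 1 at that p. On day 3, 52 of the 56 were negative (median -0.17), and on day 0, 42 were positive (median 0.12). These genes were read from the same libraries as the 46, so they are not separate support. Their values without d7_KO_420 were not computed. From day 3 to day 7, 1 of 36 other replication genes (Cdc7, a kinase that fires origins, 0.79 ± 0.23) and 1 of 56 mitosis genes (Zwint, 0.36 ± 0.10) rose in WT, where 10.6% of all genes did. In KO, 0 replication genes were called (0 at an unadjusted p under 0.05) and 1 mitosis gene fell (Hjurp, a centromere chaperone, -0.25 ± 0.07). Against day 0 in KO on day 7, 40 of 56 mitosis genes were called lower and 0 higher (27.3% of all genes in each direction), with Aspm at -1.78 ± 0.25 (edgeR adjusted p = 4.91e-05), and 14 of 36 replication genes lower, with Pole at -1.24 ± 0.26. In WT on day 7, 18 of 56 mitosis genes and 10 of 36 replication genes were called lower, near the 29.2% of all genes, and 4 and 0 higher against 27.8%.

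Among 35 further cell cycle regulators tested, 8 rose and 6 fell in WT on day 7 against day 0, and 6 rose and 6 fell in KO, shares below those of all genes (27.8% and 29.2% in WT, 27.3% and 27.3% in KO). E2f4, an E2F factor linked to repression, rose by 0.99 ± 0.08 in WT and 1.13 ± 0.11 in KO (edgeR adjusted p = 7.85e-07 and 1.18e-06). Among 16 p53 target genes, the group to which Cdkn1a also belongs, 2 rose and 3 fell in WT and 4 rose and 4 fell in KO, none of these shares above that of all genes. Bax, which promotes cell death at mitochondria, rose by 1.08 ± 0.14 and 0.64 ± 0.09, and Plk2 fell by 0.93 ± 0.23 and 1.19 ± 0.18 on the log2 scale. From day 3 to day 7, Plk2 and the antiproliferative gene Btg2 fell in both genotypes, by 0.84 ± 0.23 and 0.92 ± 0.24 in WT and by 1.29 ± 0.17 and 1.07 ± 0.24 in KO, and Cdkn1a did not pass edgeR's test (0.03 and 0.07 on the log2 scale).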

How the data were processed

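Poly(A) RNA of 38 samples was made into TruSeq stranded libraries and sequenced in 2 lanes each, per the labels' protocols. The submitters' processing notes name Trim Galore, STAR, build GRCm38 and featureCounts 1.5.2, while the file headers name featureCounts 1.6.2. The deposited values are raw counts per gene and lane that the authors made without regard to strand, per the file headers; lanes were summed here. Of the 46 genes, 10 have exons that overlap a gene on the opposite strand.

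Genes were filtered with filterByExpr, scaled with TMM and tested over all genes with edgeR 4.0.16 (quasi-likelihood test) in R 4.3.3, with Benjamini-Hochberg adjusted p under 0.05 as the call. Only the compared groups entered a fit. Alternatives were DESeq2 1.42.0, other filters and scalings, all libraries in 1 fit, an immune score and each library left out; the fits were tested on simulated data. The 46 genes, gene lists and tests were chosen with earlier results of these data known. Per-library values are given for a set list of genes and for up to 3 per direction with the largest changes, or the 3 smallest p-values. Replicates are labelled by animal number only.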

Additional observations from a re-analysis of the deposited data

Results flagged for a closer look

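A gap test for single high or low libraries (Dixon, 95% level) was run on 162 sets of values, and 23 libraries' values were marked; chance alone marks about 1 in 20 sets. The library labelled d0_KO_32 stood above its group in Top2a (270 CPM, others 203 to 211), Rrm2 (27.6), Ccnd1 (95.1), Cdk1 (54), E2f2 (49.9), Kif11 (92.0) and Cdc20 (63.2 CPM, others 35.1 to 36.1), and in its mean log2 CPM over the 46 genes (5.53, others 4.94 to 5.07). The library labelled d3_KO_345 stood above its group in Hk2 (435 CPM, others 68.4 to 128), Ccnd1 (142), Cdkn1a (316) and Mcm4 (40.5 CPM). The WT library d3_WT_381 was high in Rrm2 (39.5), Cdk1 (51.7), Birc5 (39.6), Ube2c (50.5) and Cenpa (41.4 CPM) and low in Plk1 (63.9 CPM, others 86.4 to 95.3), and 41.7% of its counts came from the mitochondrial genome. The WT library d7_WT_386 was high in Rrm2 (46.1), Ccne1 (10.8) and Cdk1 (55.3 CPM). The library d7_KO_420 was high in Cdkn1a (485 CPM, others 160 to 241), and d7_WT_356 was high in Hk2 (611 CPM, others 228 to 317).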

How the results depend on the processing

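Of 376 counts of called genes under alternatives, 332 stayed within 1.5 times the main count, and no named gene changed sign. A count of 0 in both fits was taken as unchanged, and every genotype and interaction comparison had main counts of 0. The 332 therefore say little about how stable the other counts are. With DESeq2's Wald test, 1 gene was called higher on day 0 (KO against WT) and 1 lower over days 3 and 7, where 1.17% and 3.46% of all genes were called. With a minimum absolute log2 fold change of 1, 0 genes stayed called from day 3 to day 7 in either genotype. Against day 0, 1 higher and 0 lower stayed in WT on day 3, 1 and 2 on day 7, 1 and 0 in KO on day 3, and 2 and 3 on day 7. The share of all genes that stayed called at this minimum was not counted. With no filter, 1 gene was called lower in WT from day 3 to day 7, where 11% of all genes were called in either direction. For WT day 3 against day 0, a mean CPM of at least 1 left 3 called higher, and all libraries in 1 fit left 3 higher and 5 lower. These 2 settings called 42.5% and 49.2% of all genes in either direction. The cause of these shifts was not tested. Leaving out 1 library (for comparisons with day 0, each day 0 library and, in KO, 1 library of the later day) gave 1 to 2 called lower from day 3 to day 7 in each genotype, 3 to 5 higher and 7 to 12 lower in WT on day 3 against day 0, 6 to 10 lower in WT on day 7, 2 to 5 higher in KO on day 3, and 11 to 21 lower in KO on day 7. The fits that left out 1 library called 14.8% to 25.7% of all genes in WT and 16% to 22.4% in KO from day 3 to day 7. Against day 0 they called 35.3% to 51% and 47.1% to 58.3% in WT on days 3 and 7. In KO the shares were 39.4% to 49.5% and 48.6% to 61.6%. Over days 3 and 7 (KO against WT), leaving out d7_KO_420, an alternative chosen after seeing the data, gave 1 higher and 1 lower, and leaving out d3_KO_345 gave 0 and 0. All genes were called at 2.85% and 0.0245% in these 2 fits. The median log2 changes of the 46 genes moved by less than 0.299, the SD between libraries of a group. The main medians between genotypes, from -0.16 to 0.13, were themselves smaller than this, as were those from day 3 to day 7. Only the KO medians against day 0 (-0.36 and -0.53) were larger. A smaller median could change sign and still count as unchanged, so this says little about its stability. No paired analysis was possible because replicate numbers are animal numbers and the groups share none. Nothing in the labels states the dissection of each animal, so p-values measure the spread between these samples. At these depths 3 counts correspond to 0.0495 to 0.286 CPM, below every level given for the 46 genes.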
